A study of Mus musculus with 24 samples.

Results

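The genes described here are 10 members of the unfolded protein response and the integrated stress response, Atf4, Ddit3, Trib3, Asns, Chac1, Sesn2, Ddit4, Hspa5, Xbp1 and Herpud1. They were taken by symbol from the 23879 genes with a value in each library, and all 10 were found and passed the filter on low values. Transcript levels were measured in endothelial cells (endothelium) and stromal cells (stroma) of mouse bone marrow, strain C57BL/6J, in a study of the arteriolar niche of blood stem cells. There were 24 libraries, 3 for each of 8 groups. For both cell types the groups were cells in culture, cells in culture serving as the control of a co-culture ("alone"), the co-culture with hematopoietic stem and progenitor cells ("with HSPC"), and cells in vivo. Titles of the 6 groups grown in vitro carry the name Akt1 and those of the 2 in vivo groups do not. The labels give no age, no agent, no sorting step and no meaning for that name, so a difference between in vivo and culture cannot be told apart from a difference in what the name stands for or in how the cells were isolated.

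In the integrated stress response, kinases that sense unfolded protein, lack of amino acids, viral RNA or lack of heme phosphorylate the translation factor eIF2alpha, which slows protein synthesis while letting the mRNA of the transcription factor ATF4 be translated. ATF4 and its target CHOP, the product of Ddit3, switch on genes for amino acid uptake and synthesis, redox control and, when stress lasts, cell death. In the unfolded protein response of the endoplasmic reticulum (ER), the sensor PERK feeds into that pathway, while the sensors IRE1 and ATF6 act through the spliced form of Xbp1 and through cleaved ATF6 on chaperones such as Hspa5 and on ER-associated degradation, to which Herpud1 belongs. Gene-level values of Xbp1 do not separate its spliced from its unspliced form, and mRNA levels of Atf4 do not report its translation.

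The promoters of 4 members are shown because they hold exact matches to the elements through which these pathways act. The sequences are the 250 bases upstream of the gene start in RefSeq, build GRCm38.p6, written 5′ to 3′ on the gene's strand, with the matched element in capitals. The searched elements, on both strands, were the C/EBP-ATF response element TGATGNAA, the ER stress response element (CCAAT and CCACG with any 9 bases between), its second form (ATTGG and CCACG with any 1 base between) and the unfolded protein response element TGACGTGG. No pair of matches in these windows overlapped.
Asns, chr6:7693210-7693459, minus strand: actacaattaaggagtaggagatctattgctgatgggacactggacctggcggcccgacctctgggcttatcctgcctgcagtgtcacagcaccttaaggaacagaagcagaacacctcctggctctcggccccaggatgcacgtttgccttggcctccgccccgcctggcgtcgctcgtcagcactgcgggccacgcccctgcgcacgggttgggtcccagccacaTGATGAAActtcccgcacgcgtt
Chac1, chr2:119350992-119351241, plus strand: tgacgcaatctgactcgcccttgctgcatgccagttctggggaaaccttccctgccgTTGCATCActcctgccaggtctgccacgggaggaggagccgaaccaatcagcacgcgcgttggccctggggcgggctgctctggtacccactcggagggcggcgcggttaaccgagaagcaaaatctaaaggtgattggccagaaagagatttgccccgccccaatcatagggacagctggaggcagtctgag
Hspa5, chr2:34771840-34772089, plus strand: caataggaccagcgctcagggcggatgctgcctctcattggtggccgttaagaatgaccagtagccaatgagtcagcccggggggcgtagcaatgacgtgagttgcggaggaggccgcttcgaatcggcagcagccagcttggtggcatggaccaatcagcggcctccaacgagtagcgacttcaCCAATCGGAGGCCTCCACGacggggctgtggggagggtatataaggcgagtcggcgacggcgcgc
Herpud1, chr8:94386179-94386428, plus strand: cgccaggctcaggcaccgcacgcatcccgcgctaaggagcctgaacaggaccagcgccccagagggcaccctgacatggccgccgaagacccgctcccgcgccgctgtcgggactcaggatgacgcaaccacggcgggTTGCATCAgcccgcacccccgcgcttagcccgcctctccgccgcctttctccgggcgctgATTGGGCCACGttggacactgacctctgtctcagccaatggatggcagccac
The element TGATGNAA starts at position -23 from the gene start in Asns, and on the opposite strand at -193 in Chac1 and -112 in Herpud1. Among all 32851 promoters of the same length it was present in 3.45%. Hspa5 holds the ER stress response element at -65, which 0.113% of all promoters hold, and Herpud1 holds the second form at -52, which 0.0304% hold. The element TGACGTGG, held by 0.563% of all promoters, had no match in the 10 windows. Windows of Atf4 (chromosome 15), Ddit3 and Ddit4 (10), Trib3 (2), Sesn2 (4) and Xbp1 (11) held no exact match to any of the 4 elements. A match describes these letters and is not evidence of binding. In the further gene lists used below, the ER stress response element was present in 6 of the 14 ER chaperone and foldase genes with a promoter in the table (Hsp90b1, Calr, Canx, Pdia6, Creld2 and Ero1lb), and TGATGNAA in 0. TGATGNAA was present in 3 of 8 cytosolic aminoacyl-tRNA synthetase genes (Aars, Gars and Tars). It was also present in 3 of 7 genes of ATF4 partners and other stress bZIP factors (Atf3, Jdp2 and Nupr1).

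The deposited FPKM (fragments scaled by transcript length and by library) summed to between 1421447 and 1808592 per library. Their depth is unknown, since FPKM keep no read number. Libraries of one group correlated across genes at 0.9947 or more in the groups alone, with HSPC and in vivo, but at 0.9624 to 0.9717 in cultured endothelium and 0.9539 to 0.9927 in cultured stroma, where replicate 1 stood apart. Xist stood at 1006 or more in 3 cultured libraries (endothelium replicates 2 and 3, stroma replicate 3), in which 4 Y-linked genes were at 0, and at 2.35 or less in the other 21. Both cultured groups thus hold libraries of both patterns, which cannot all be from the same animal, while all other groups hold only the pattern without Xist. The labels do not state whether libraries of the same group are from different cultures or animals. Adjusted p-values therefore reflect the spread among libraries alone, and that spread may be technical where the patterns do not differ. Summed over 10 endothelial markers, levels were 8410 to 18240 in the endothelial groups and 18.1 to 369.8 in the stromal groups. Akt1, the growth and survival kinase named in the titles, stood at 1079.75 to 2337 FPKM in endothelium in vitro and 433 to 469.9 in vivo, and at 462 to 698 in stroma in vitro and 234 to 284 in vivo. Over 10 mesenchymal markers they were 4500–11610 in cultured stroma, 60060–66170 in stroma alone and 141500–167600 in vivo, with Lum at 0 in all 3 libraries of cultured stroma and Lepr at 0 in stroma alone. Differences are given as log2 differences ± SE of log2(FPKM + 1), a scale that understates the change of low genes. A gene is called changed at a limma adjusted p under 0.05 over all tested genes.

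Stroma with HSPC held the highest mean level of 7 of the 10 genes. How many of all genes peak in this group was not computed, so the count cannot be called particular to the 10. Atf4, Ddit3, Trib3, Chac1 and Hspa5 lay higher in all 3 libraries of that group than in any of the other 21, as did Sesn2, while Asns overlapped with stroma alone. The exceptions were Ddit4, highest in endothelium with HSPC at 1516 ± 70.8 FPKM (SD, n = 3) and overlapping with cultured endothelium, Xbp1, highest in endothelium in vivo, and Herpud1, whose highest means, 496 ± 63.9 in stroma in vivo and 474 ± 48.8 in stroma with HSPC, overlapped. The span between the highest and the lowest group mean was 361-fold for Trib3, 137-fold for Chac1 and 26.6-fold for Ddit3, and between 3.64-fold for Atf4 and 13.5-fold for Ddit4 in the other 7. Atf4, the transcription factor itself, and Hspa5, the main ER chaperone, varied least among the 10, and the targets Trib3 and Chac1 most. Levels of Hspa5, 1037 to 5743 over the 24 libraries, had the highest mean per length of the 10 genes in each group except endothelium in vivo, where Xbp1 stood higher. Ddit3 overlaps Mbd6 and Mars1 in the RefSeq annotation and Hspa5 overlaps Rabepk. The strand setting of the authors' quantification is not given in the sources used here, so reads of such partners cannot be told apart.

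**Figure D1:**
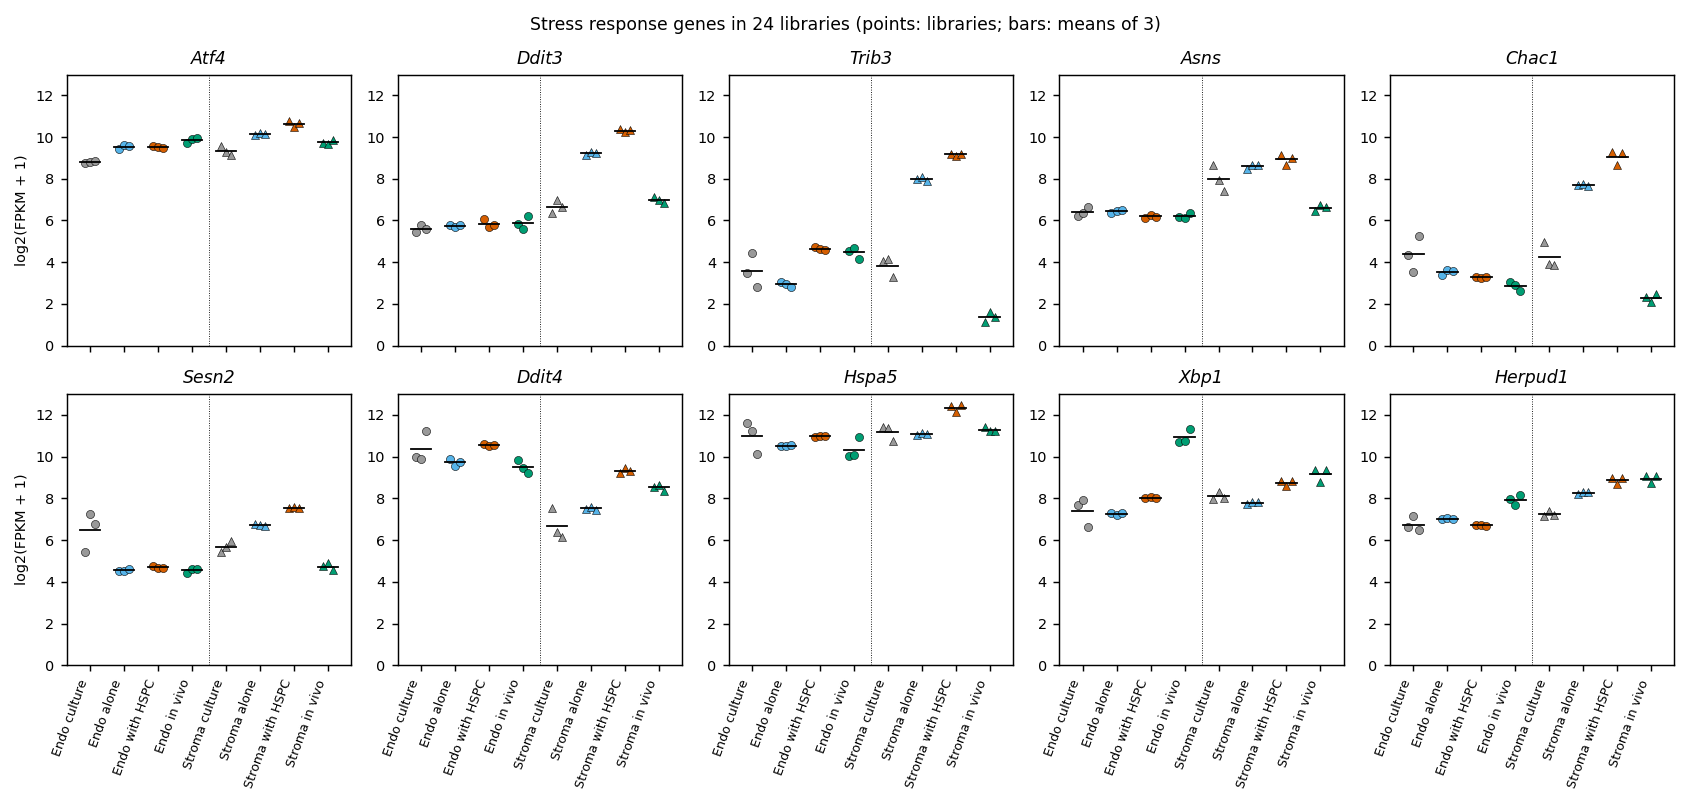
Levels of the 10 genes as log2(FPKM + 1) in each of the 24 libraries (circles endothelium, triangles stroma, colour by setting), with bars at the mean of the 3 libraries of a group. Stroma alone and with HSPC stand above all other groups for Ddit3, Trib3 and Chac1, and endothelium in vivo stands above all others for Xbp1, at 1685 to 2609 FPKM.

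With HSPC, all 10 genes rose in stroma. The share of all 14017 tested genes called in this comparison was 61.0%, with 25.6% called higher and 35.4% lower. The median log2 difference of the 10 genes was 1.02, against -0.04 over all tested genes. In libraries of mixed cells, a change in the share of cells of a type and a change in RNA per cell cannot be told apart.

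Atf4, which activates most of the other members, stood at 1081, 1169.9 and 1146 FPKM in stroma alone and at 1771, 1424 and 1639 with HSPC. The groups did not overlap, and the difference was 0.50 ± 0.07 (adjusted p = 0.000102, 1.42-fold in the means). Ddit3, whose product CHOP is the ATF4 partner tied to cell death, stood at 559.8, 628 and 602 alone and at 1336, 1208 and 1279 with HSPC. Every library with HSPC lay above every library alone, and the difference was 1.09 ± 0.08 (adjusted p = 6.18e-07). Trib3, a pseudokinase induced by both factors, which in turn restrains ATF4 and AKT, stood at 252, 272 and 240.2 alone and at 589, 551 and 592 with HSPC. These groups were also apart, by 1.18 ± 0.06 (adjusted p = 3.73e-08).

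Among the targets, Chac1, an enzyme that degrades glutathione, stood at 206, 212 and 202 FPKM alone and at 619, 407 and 593 with HSPC, a difference of 1.36 ± 0.13 (adjusted p = 3.55e-06). Replicate 2 with HSPC lay below its fellow libraries for Chac1 but above all libraries of stroma alone, and it was the lowest of its group for Atf4, Ddit3, Trib3, Asns, Hspa5, Xbp1 and Herpud1 as well. Sesn2, which holds back the growth kinase mTORC1 when leucine is scarce, went from 99.8–109 to 184–192 (0.84 ± 0.05). Ddit4, another mTORC1 inhibitor and also a known target of the hypoxia response, had the largest rise of the 10, from 182, 190.3 and 174 alone to 591, 695 and 632 with HSPC. Its groups stood apart by 1.80 ± 0.08 (adjusted p = 9.17e-09, 3.51-fold in the means). Asns, asparagine synthetase, had the smallest, from 358, 406 and 406 to 571, 401 and 509.9, with overlapping groups. Its difference of 0.33 ± 0.11 (adjusted p = 0.0187) was no longer called without stroma alone replicate 1 (0.27), without stroma with HSPC replicate 1 (0.22) or replicate 3 (0.30), or with the 2 compared groups alone in the fit.

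The 3 members of the ER arm rose in stroma too. Hspa5, the chaperone BiP that also holds the sensors inactive, stood at 2121, 2235 and 2188 FPKM alone and at 5457, 4505 and 5743 with HSPC, with no overlap (1.26 ± 0.08, adjusted p = 8.38e-08). Xbp1, the transcription factor downstream of IRE1, rose by 0.95 ± 0.06, from 213–226 to 385–455. Herpud1, a membrane component of ER-associated degradation, rose by 0.61 ± 0.07, from 297–318 to 417–504.

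In endothelium, 5 of the 10 genes rose with HSPC and 1 fell, where 48.6% of all tested genes were called, 28.3% higher and 20.3% lower. The median of the 10 was 0.11, against 0.02 over all tested genes. Calls higher made up 58.2% of all calls as deposited and 45.3% after quantile normalization. The largest rise was that of Trib3, from 7.18, 6.79 and 6.12 FPKM alone to 25.2, 23.7 and 22.8 with HSPC. Its groups did not overlap, at 1.69 ± 0.06 (adjusted p = 3.18e-09), while its level with HSPC remained far below the 551–592 of stroma with HSPC. Ddit4 rose by 0.84 ± 0.08, from 947, 753 and 849 to 1577, 1439 and 1534. Xbp1 rose by 0.77 ± 0.06, from 155, 147 and 158 to 260.0, 266 and 259. Hspa5 rose by 0.44 ± 0.08, from 1459, 1473 and 1520.3 to 1981, 2015 and 2038. For each of these 3 genes the libraries with HSPC all lay above those without.

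Atf4 and Ddit3 were not called in endothelium. Atf4 stood at 697, 791 and 753 FPKM alone and at 753, 746 and 722 with HSPC, and Ddit3 at 54.7, 50.5 and 54.0 and at 65.3, 49.9 and 54.6. Both genes overlapped between the groups. The difference of Atf4 was -0.01 ± 0.07 (95% interval -0.17 to 0.15, adjusted p = 0.966) and that of Ddit3 0.08 ± 0.08 (interval -0.10 to 0.27, adjusted p = 0.458). Asns (-0.24 ± 0.11, adjusted p = 0.0838) and Chac1 (-0.25 ± 0.13, adjusted p = 0.134) had no library with HSPC above one without, and neither was called in the 4-group fit. Both were called lower with the 2 compared groups alone or after quantile normalization, at -0.26 for Asns and -0.35 for Chac1 in the latter. Herpud1 fell (-0.31 ± 0.07, adjusted p = 0.00205), from 127, 134 and 127 to 106, 105 and 100.4, with no overlap. Sesn2 was called higher by 0.14 ± 0.05, from 21.95–23.17 to 23.96–26.07. That call was lost under trimmed-mean scaling (0.10), quantile normalization (0.08) and a fit of the compared groups alone (0.14), and without endothelium alone replicate 1 (0.13) or replicate 2 (0.12) or endothelium with HSPC replicate 1 (0.10).

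The response to HSPC differed between the cell types for 9 of the 10 genes, with 57.0% of all tested genes called in this interaction. The log2 difference was lower in endothelium for 8, where 21.1% of tested genes were called in that direction, and higher for Trib3, where 36.0% were. The largest of the 8 was Chac1, at -1.61 ± 0.18 (endothelium minus stroma, adjusted p = 2.36e-05), followed by Ddit3 at -1.01 ± 0.12, Ddit4 at -0.96 ± 0.11 and Herpud1 at -0.92 ± 0.09. The others of the 8 were Hspa5 at -0.82 ± 0.11, Sesn2 at -0.70 ± 0.06, Asns at -0.57 ± 0.15 and Atf4 at -0.52 ± 0.10. Herpud1 was the one member called in opposite directions in the cell types. Trib3 had the positive difference, 0.52 ± 0.09 (adjusted p = 0.000506), from a level in endothelium alone of 6.70 FPKM that was 38.0 times lower than in stroma alone. Xbp1 rose in both cell types and its difference of -0.18 ± 0.08 was not called (95% interval -0.36 to -0.003, adjusted p = 0.0768), but it was called without stroma with HSPC replicate 2 (-0.26) and under trimmed-mean scaling (-0.25). The median of all tested genes in this interaction was 0.11, which trimmed-mean scaling moved to 0.045.

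Other groups of genes moved with HSPC in both cell types. All 10 hypoxia targets looked at rose in both, and their summed level went from 2016–2127 to 15470–16740 FPKM in stroma and from 2794–2988 to 8493–9214 in endothelium. Among them was Egln3, a prolyl hydroxylase of the hypoxia pathway, at 5.70 ± 0.11 in stroma. Of 10 pan-hematopoietic markers 10 rose in stroma, where the sum went from 0–0.880 to 31.3–44.4 FPKM, and 9 in endothelium, where it went from 70.5–76.3 to 203–248. Ptprc, Vav1 and Spi1 were at 0 in every library of both groups alone and were detected in both groups with HSPC. Of 10 immediate-early genes 9 rose and 1 fell in stroma, while 1 rose and 5 fell in endothelium. The part of these gene groups in the stress gene results was not tested.

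The further genes of the pathways, 108 in 10 lists without the 10 members, moved unevenly. In stroma with HSPC, most genes of the lists downstream of ATF4 rose. All 9 amino acid transporters rose, with a median of 0.89, led by the neutral amino acid transporters Slc1a5 at 1.35 ± 0.09 and Slc1a4 at 1.14 ± 0.07. Of 12 cytosolic aminoacyl-tRNA synthetases 9 rose and 0 fell, with a median of 0.36 and the tryptophan enzyme Wars highest at 0.71 ± 0.11. Of 9 serine and one-carbon enzymes 6 rose and 1 fell (median 0.65), led by the mitochondrial folate enzymes Mthfd1l at 1.95 ± 0.05 and Aldh1l2 at 1.72 ± 0.06.

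Of 11 other ATF4 and CHOP targets 10 rose and 1 fell in stroma with HSPC, with a median of 1.12. The ER oxidase gene Ero1l, a CHOP target that also responds to hypoxia, stood at 118, 129.9 and 128 FPKM alone and at 3741, 5457 and 4746 with HSPC, a difference of 5.19 ± 0.11. The stress hormone gene Fgf21 stood at 3.48, 2.86 and 2.32 and at 36.3, 15.5 and 27.9, and was listed at 0 in the other 18 libraries. Among 7 tested stress bZIP and partner factors 5 rose and 1 fell, with Atf3 at 3.19 ± 0.15 and Cebpb at 1.79 ± 0.08. Of 8 eIF2alpha kinases, phosphatase subunits and related genes 4 rose and 2 fell. Ppp1r15a, the GADD34 subunit that lets eIF2alpha be dephosphorylated and a target of CHOP, stood out at 2.58 ± 0.08, from 77.7–81.9 to 421–515 FPKM.

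The ER lists did not move as a block in stroma. Of 16 ER chaperones and foldases 6 rose and 7 fell, with a median of -0.05 against -0.04 for all tested genes. The disulfide isomerase P4hb rose by 1.13 ± 0.04, the BiP cochaperone Dnajb9 by 1.05 ± 0.06 and the ER paralogue of HSP90, Hsp90b1, by 0.88 ± 0.05, while the collagen foldase Fkbp14 fell (-0.64 ± 0.08). Of 12 genes of ER-associated degradation 6 rose and 4 fell, and of 14 genes of ER translocation and export 5 rose and 0 fell. Among 8 ER stress sensors and their proteases 3 rose, including Ern1 (IRE1) at 0.82 ± 0.06 and Atf6 at 0.74 ± 0.08, and 2 fell.

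In endothelium with HSPC, ER chaperones rose. Of 16 measured 13 rose and 0 fell, with a median of 0.35 against 0.02 for all tested genes, led by P4hb at 0.91 ± 0.04 and Hsp90b1 at 0.77 ± 0.05. The aminoacyl-tRNA synthetases had 0 of 12 called higher and 1 called lower (Iars at -0.10 ± 0.03), with a median of -0.09. Trimmed-mean scaling gave 5 called lower in that list and quantile normalization 6. Of 9 serine and one-carbon enzymes 2 rose and 3 fell, with Mthfd1l at 1.67 ± 0.05 and Mthfd2, another mitochondrial folate enzyme, at -0.39 ± 0.10. The calls lower in that list were 5 under trimmed-mean scaling and 6 after quantile normalization. Of 11 other ATF4 and CHOP targets 6 rose and 0 fell, led by Ero1l at 2.81 ± 0.11, the lipoprotein receptor gene Vldlr at 1.91 ± 0.05 and the secreted factor Stc2 at 1.89 ± 0.14, and 2 fell after quantile normalization. Of 9 amino acid transporters 5 rose, with the glutamine transporter Slc38a2 at 1.35 ± 0.03, and 2 fell, with the arginine transporter Slc7a1 at -0.83 ± 0.08. Atf3 fell in endothelium (-0.99 ± 0.15) and rose in stroma. Of the interaction tests, 9 of 12 synthetases and 7 of 9 serine and one-carbon enzymes were called smaller in endothelium and 0 larger. Transporters had 7 of 9 called smaller and 1 larger, and chaperones 10 of 16 larger and 2 smaller. Of all tested genes, 21.1% were called smaller and 36.0% larger.

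**Figure D2:**
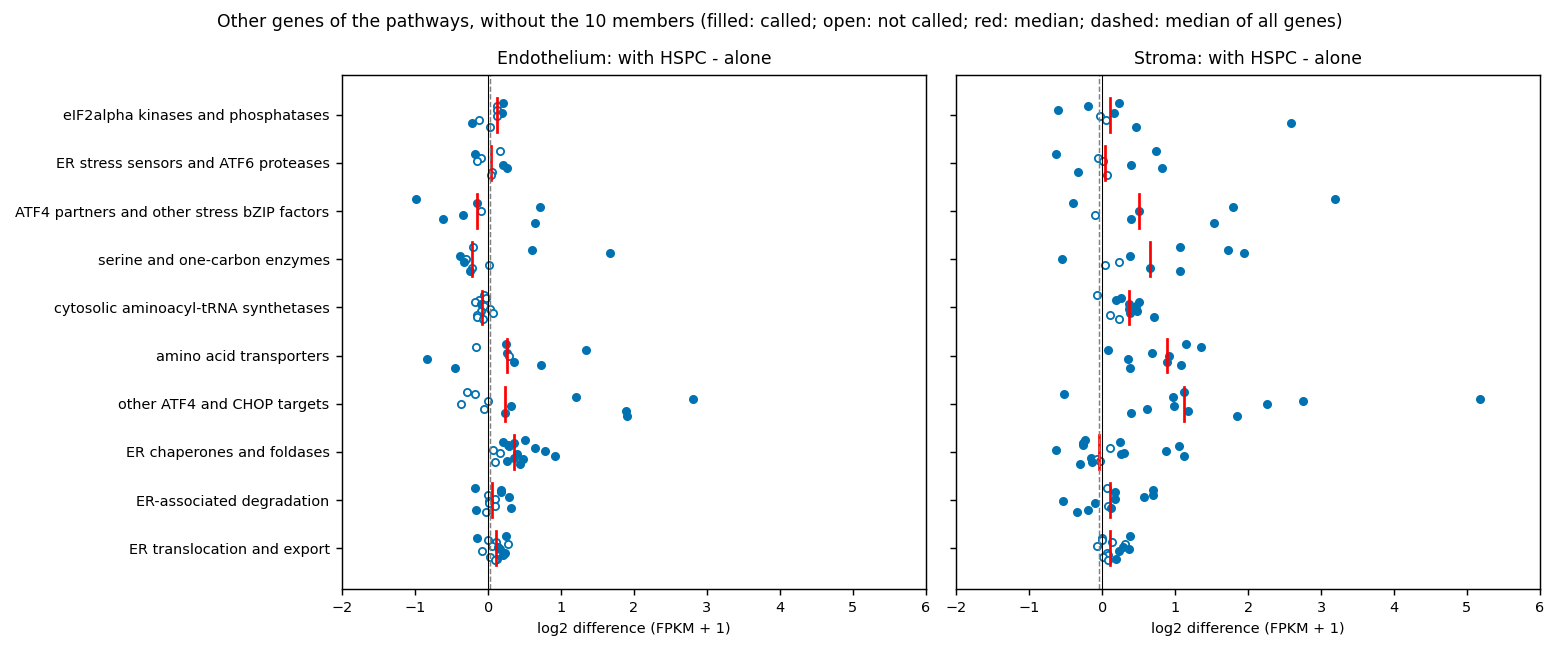
Log2 differences between libraries with HSPC and alone for the 108 further pathway genes in endothelium (left) and stroma (right), one point per tested gene by list, filled where the limma adjusted p was under 0.05. Red bars give list medians, at 0.35 for ER chaperones in endothelium against -0.05 in stroma and at 0.89 for amino acid transporters in stroma against 0.26 in endothelium, and the dashed line is the median of all tested genes.

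Endothelium alone was lower than stroma alone in 9 of the 10 genes and higher in 1, where 83.3% of tested genes were called, 41.3% lower and 42.0% higher. With HSPC the counts were also 9 and 1, where 85.1% of tested genes were called, 38.6% lower and 46.6% higher. The gap was widest for Trib3 alone (-5.05 ± 0.06) and for Chac1 with HSPC (-5.78 ± 0.13), and Ddit3 stood at -3.47 ± 0.08 alone and -4.48 ± 0.08 with HSPC. Chac1 alone was at -4.17 ± 0.13 and Trib3 with HSPC at -4.54 ± 0.06. Asns (-2.17 ± 0.11), Sesn2 (-2.17 ± 0.05) and Herpud1 (-1.25 ± 0.07) were also lower in endothelium alone, and with HSPC they were at -2.74 ± 0.11, -2.87 ± 0.05 and -2.18 ± 0.07. The smallest gaps were those of Atf4 (-0.60 ± 0.07), Hspa5 (-0.56 ± 0.08) and Xbp1 (-0.53 ± 0.06) alone, which with HSPC were at -1.12 ± 0.07, -1.37 ± 0.08 and -0.71 ± 0.06. Ddit4 went the other way, at 2.21 ± 0.08 alone and 1.25 ± 0.08 with HSPC. In the same pair of groups, 9 of 9 serine and one-carbon enzymes, 11 of 12 aminoacyl-tRNA synthetases and 14 of 16 ER chaperones were lower in endothelium alone than in stroma alone, with medians of -1.97, -0.83 and -0.66.

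Stroma in culture, the other stromal group grown without HSPC, had lower levels of most of these genes. Compared with stroma in culture, 6 of the 10 genes were higher in stroma alone and 0 lower, where 33.8% of tested genes were called, 16.0% higher and 17.8% lower. Trib3 stood at 15.6, 16.8 and 8.70 FPKM in culture and at 240.2–272 alone, a difference of 4.17 ± 0.36 (adjusted p = 2.07e-05). Chac1 stood at 30.4, 13.9 and 13.8 in culture (3.44 ± 0.40, adjusted p = 0.000132), and Ddit3 at 81.0, 125 and 101 (2.56 ± 0.15, adjusted p = 1.35e-06). For all 3 genes every library alone lay far above every library in culture. Herpud1 was higher by 1.03 ± 0.15, Atf4 by 0.81 ± 0.13 and Sesn2 by 1.04 ± 0.36, the last with an adjusted p of 0.0495 that passed the threshold in none of the 6 fits with 1 library left out (0.91 to 1.17). Hspa5 (-0.08 ± 0.34) and Xbp1 (-0.30 ± 0.27) were not called. With all 3 Xist-carrying cultured libraries left out, which leaves 1 of cultured endothelium in the shared fit, they were at -0.29 and -0.34. Asns (0.61 ± 0.25) and Ddit4 (0.83 ± 0.40) were not called. Cultured replicate 1 stood high for both, at 398 and 187 FPKM, and both were called higher without it (0.93 and 1.27).

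Beside these changes, 7 of 9 amino acid transporters, 5 of 12 aminoacyl-tRNA synthetases and 4 of 9 serine and one-carbon enzymes were higher in stroma alone than in culture and 0 of each were lower, with medians of 1.20, 0.30 and 0.84. ER chaperones had 1 of 16 higher (Ppib, 0.54 ± 0.12) and 1 lower (Sdf2l1, -1.90 ± 0.32). The stromal libraries of these groups also differed in identity genes, with summed osteoblast markers at 16250–92590 FPKM in culture and 1805–1913 alone besides the mesenchymal sums given above. Of the 5 osteoblast markers tested, 2 were lower alone and 1 higher, so the sum does not describe the whole list. The 10 endothelial markers summed to 24.7–369.8 in cultured stroma and 18.1–18.7 in stroma alone, with 5 called lower and 1 higher. Of 8 p53 targets 5 were lower and 1 higher. Their part in the stress gene differences was not tested.

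In endothelium, 1 of the 10 genes was higher alone than in culture and 1 lower, where 23.2% of tested genes were called, 8.78% higher and 14.4% lower. Calls higher made up 37.8% of calls as deposited, 54.6% after trimmed-mean scaling, which moved the median of all genes from -0.109 to 0, and 52.6% after quantile normalization. Atf4 stood at 428, 444 and 456 FPKM in culture and 0.75 ± 0.13 higher alone (adjusted p = 0.00273). Sesn2 stood at 42.1, 150.2 and 110.0 in culture and at 22.3, 22.0 and 23.2 alone, a difference of -1.94 ± 0.36 (adjusted p = 0.00495). Cultured endothelium varied widely for Sesn2, yet its lowest library lay above all libraries alone. Trib3 (-0.63 ± 0.36), Chac1 (-0.85 ± 0.40) and Ddit3 (0.15 ± 0.15, 95% interval -0.18 to 0.48) were not called, nor were Asns (0.03 ± 0.25), Ddit4 (-0.64 ± 0.40), Xbp1 (-0.15 ± 0.27), Herpud1 (0.28 ± 0.15) and Hspa5 (-0.46 ± 0.34). The count of called members was 4 without cultured replicate 2 and 5 without cultured replicate 3. Hspa5 was among those gained without cultured replicate 3, at -0.90. Leaving out the 3 Xist-carrying libraries of both cell types leaves 1 library of cultured endothelium, assumed to vary like the other groups. Hspa5 was then at -1.1. Of 10 immediate-early genes 9 were higher in endothelium alone than in culture and 0 lower, with sums of 5038–5571 against 549–1048 FPKM, and 3 of 8 p53 targets were lower. Their part in the differences of Atf4 and Sesn2 was not tested.

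**Figure D3:**
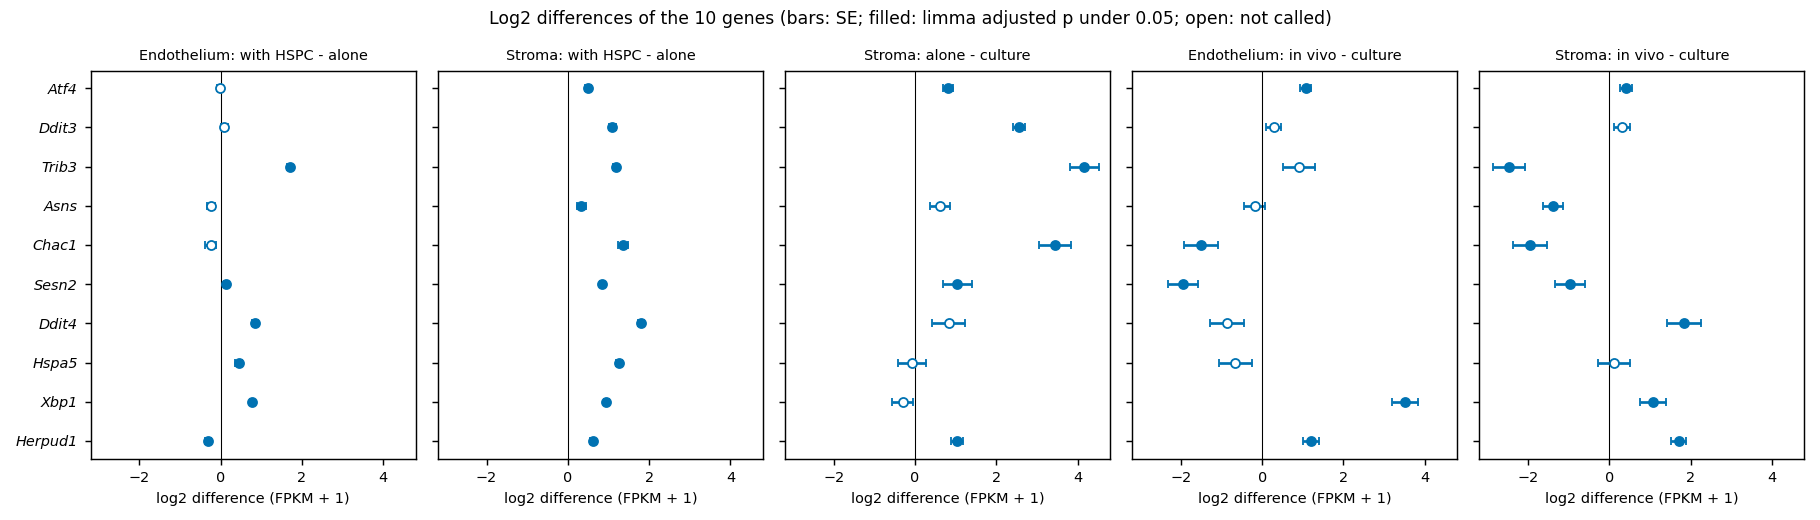
Log2 differences ± SE of the 10 genes in 5 comparisons, filled where called at a limma adjusted p under 0.05 and open where not. With HSPC all 10 genes lie right of 0 in stroma, whereas Atf4 and Ddit3 lie at -0.01 and 0.08 in endothelium, and Xbp1 reaches 3.53 in endothelium in vivo.

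Compared with culture, Atf4, Xbp1 and Herpud1 were higher and Chac1 and Sesn2 lower in vivo in both cell types, although in stroma the calls of Atf4, Xbp1 and Sesn2 were lost without single libraries. In endothelium 3 of the 10 genes were higher in vivo than in culture and 2 lower, where 53.3% of tested genes were called, 23.6% higher and 29.8% lower. Calls higher made up 44.2% of calls as deposited and 54.5% after trimmed-mean scaling. Xbp1 stood at 205, 242 and 99.4 FPKM in culture and at 1685, 1741 and 2609 in vivo. The lowest library in vivo lay far above every library of any other group, and the difference from culture was 3.53 ± 0.32 (adjusted p = 1.15e-05, 11.1-fold in the means). Herpud1 was higher by 1.20 ± 0.19, from 87.9–139 to 204–288, and Atf4 by 1.07 ± 0.14, from 428–456 to 842–999. Chac1, at 10.5–36.7 in culture and 5.13–7.17 in vivo, was lower (-1.51 ± 0.42), as was Sesn2, at 42.1–150.2 and 20.4–23.5 (-1.94 ± 0.37). Hspa5 was not called (-0.66 ± 0.40, adjusted p = 0.191), with 1037, 1073 and 1942 in vivo and 3174, 2407 and 1111 in culture, but was called lower without cultured replicate 3 (-1.10). Trib3 (0.90 ± 0.39, adjusted p = 0.0753) was called higher without cultured replicate 2 (1.34) and under trimmed-mean scaling (1.09). Ddit3 (0.28 ± 0.19) and Asns (-0.18 ± 0.25) overlapped between the groups and were not called. Ddit4 (-0.87 ± 0.42, adjusted p = 0.106) was not called either, though its groups did not overlap.

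Xbp1 is also a marker of plasma cells. The other 8 plasma cell markers summed to 67.2–82.4 FPKM in endothelium in vivo, against 341–632 in culture. In culture that sum was mostly Sdc1, at 443, 338 and 628 in culture and 13.3, 16.4 and 17.4 in vivo (-4.78 ± 0.20). Of the 5 markers other than Xbp1 that were tested, 3 were higher in vivo, Prdm1 at 4.43 ± 0.24, Igj at 4.03 ± 0.61 and Pou2af1 at 1.28 ± 0.15. Prdm1, Irf4, Mzb1 and Pou2af1 were at 0 in every library of cultured endothelium. In vivo, Tnfrsf17 was at 0 in all 3 libraries, Mzb1 stood at 0, 2.00 and 4.64, Igj at 25.3, 36.5 and 15.6 and Prdm1 at 20.4, 19.8 and 21.6. Irf4 stood at 0.920–1.42 and Pou2af1 at 1.14–1.80. Other groups of genes moved with the in vivo state as well. All 10 immediate-early genes were higher in endothelium in vivo, with summed levels of 20230–33170 against 549–1048 in culture, and so were 6 of 6 glucocorticoid targets and 8 of 8 erythroid markers (sums 676–1321 against 0–2.54). Pan-hematopoietic markers summed to 449–597 in vivo and 103–175 in culture. The part of these groups in the stress gene results was not tested.

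In stroma 4 of the 10 genes were higher in vivo than in culture and 4 lower, where 55.4% of tested genes were called, 24% higher and 31.4% lower. Calls higher made up 43.3% of calls as deposited and 57.4% after trimmed-mean scaling, which moved the median of all genes from -0.147 to 0.063. Trib3, at 15.6, 16.8 and 8.70 FPKM in culture, stood at 1.19, 2.03 and 1.58 in vivo, the lowest of the 8 groups, a difference of -2.46 ± 0.39 (adjusted p = 0.000445). Chac1, at 4.05, 3.27 and 4.49 in vivo, was lower (-1.96 ± 0.42), as was Asns, at 87.1, 106 and 98.1 (-1.39 ± 0.25). The 3 targets had no overlap between stroma in vivo and in culture. Herpud1 was higher in vivo by 1.71 ± 0.19, at 534, 423 and 533 against 143, 166 and 144, Ddit4 by 1.84 ± 0.42 and Xbp1 by 1.07 ± 0.32. Hspa5 stood at 2374–2724 in vivo and overlapped with the 1722–2706 of culture (0.11 ± 0.40, 95% interval -0.78 to 1.00). Ddit3 overlapped too and was not called (0.31 ± 0.19, adjusted p = 0.191), but was called higher under trimmed-mean scaling (0.58) and after quantile normalization (0.54). Atf4 (0.41 ± 0.14) and Sesn2 (-0.96 ± 0.37) were called at adjusted p = 0.0300 and 0.0490. Sesn2 lost its call without any 1 of the 6 libraries (-1.08 to -0.83) and under trimmed-mean scaling (-0.70), Atf4 without any except cultured replicate 1 (0.31 to 0.44), and Xbp1 without in vivo replicate 1 (0.97) or 3 (0.98), so that 5 members were called without either of those 2 libraries. Markers of blood cells moved in the same comparison. The 8 plasma cell markers other than Xbp1 summed to 758–833 FPKM in vivo and 255–301 in culture. Of the 6 plasma cell markers tested, Xbp1 among them, 4 were higher in vivo and 0 lower, and Mzb1 and Tnfrsf17 were at 0 in all 3 libraries in vivo. The 8 erythroid markers summed to 37360–45090 FPKM in stroma in vivo and were at 0 in cultured stroma, and the 10 pan-hematopoietic markers summed to 150–195 in vivo and 20.2–40.2 in culture. Of 10 immediate-early genes 9 were higher and 0 lower, with sums of 23900–36080 in vivo and 803–1237 in culture, and of 10 hypoxia targets 1 was higher and 7 lower. Their part in the stress gene differences was not tested.

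Of the further pathway genes, most aminoacyl-tRNA synthetases and most serine and one-carbon enzymes were lower in vivo in both cell types. In endothelium 10 of 12 aminoacyl-tRNA synthetases were lower in vivo and 0 higher, and in stroma 12 of 12, with medians of -1.01 and -1.22 against -0.09 and -0.15 for all tested genes. Serine and one-carbon enzymes had 7 of 9 lower in endothelium and 7 of 9 in stroma, with the serine pathway enzyme Psat1 at -2.99 ± 0.42 and -3.67 ± 0.42 and Mthfd2 at -3.17 ± 0.22 and -1.70 ± 0.22. Amino acid transporters had 2 higher and 5 lower of 9 in endothelium and 3 higher and 4 lower in stroma, where their median of -0.19 became 0.01 under trimmed-mean scaling. ER chaperones had 7 lower and 1 higher of 16 in endothelium and 8 lower and 0 higher in stroma, among them Hsp90b1 at -1.19 ± 0.31 and -1.35 ± 0.31. In stroma these counts were 5 lower and 3 higher under trimmed-mean scaling and 6 lower and 1 higher after quantile normalization. ER translocation and export genes had 10 of 14 lower in endothelium and 8 in stroma, the latter 4 lower and 1 higher under trimmed-mean scaling and 5 lower and 2 higher after quantile normalization. Of 8 stress bZIP and partner factors 5 were higher and 2 lower in endothelium, and 4 higher and 2 lower in stroma. They were led by Batf2 (4.58 ± 0.34) and Atf3 (3.29 ± 0.29) in endothelium and by Atf3 (4.70 ± 0.29) and Cebpb (3.24 ± 0.50) in stroma. Ppp1r15a was higher as well, at 2.45 ± 0.25 and 3.66 ± 0.25. Atf3 and Cebpb are also known to respond early to cell handling, and the immediate-early genes given above moved in the same libraries. The part of handling in these differences was not tested.

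The change from culture to in vivo differed between the cell types for 5 genes, with an endothelium minus stroma difference above 0 for 4 and below 0 for 1, where 33.5% of tested genes were called, 16.4% higher and 17.1% lower. They were Trib3 (3.36 ± 0.55, adjusted p = 0.00104), Xbp1 (2.46 ± 0.45, adjusted p = 0.00208), Asns (1.20 ± 0.36), Atf4 (0.66 ± 0.20) and, lower, Ddit4 (-2.71 ± 0.59, adjusted p = 0.00549). The count was 3 without endothelium in vivo replicate 3 and 3 without stroma in vivo replicate 1, where Atf4 (0.61 and 0.64) and Asns (1.14 and 1.13) were no longer called. Atf4 also lost its call without replicate 2 of either in vivo group (0.64 each), and Asns without stroma in vivo replicate 3 (1.21). Sesn2 (-0.98 ± 0.53) was not called, but was without cultured endothelium replicate 1 (-1.51). Ddit3 (-0.03 ± 0.27), Chac1 (0.44 ± 0.59), Hspa5 (-0.77 ± 0.57) and Herpud1 (-0.50 ± 0.27) were not called.

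Within the marrow itself, 2 of the 10 genes were higher in endothelium than in stroma and 2 lower, where 49.3% of tested genes were called, 25% higher and 24.2% lower. Trib3, at 22.57, 25.02 and 16.98 FPKM in endothelium and 1.19, 2.03 and 1.58 in stroma, was higher by 3.11 ± 0.39 (adjusted p = 7.86e-05), and Xbp1 by 1.78 ± 0.32. Ddit3 (-1.09 ± 0.19) and Herpud1 (-1.01 ± 0.19) were lower in endothelium. With these 2 groups alone in the fit 8 members were called, 4 in each direction, adding Asns, Chac1, Ddit4 and Hspa5. In the 4-group fit these stood at -0.39 ± 0.25, 0.56 ± 0.42, 0.97 ± 0.42 and -0.95 ± 0.40. Hspa5 was also called lower in the 4-group fit under trimmed-mean scaling (-1.07), after quantile normalization (-0.84) and without endothelium in vivo replicate 3 (-1.24). Chac1 was called higher after quantile normalization (1.17). Atf4 (0.12 ± 0.14) and Sesn2 (-0.17 ± 0.37) overlapped between the cell types. In culture 1 was higher in endothelium, Ddit4 at 3.68 ± 0.42, and 3 were lower, Atf4 at -0.54 ± 0.14, Ddit3 at -1.06 ± 0.19 and Asns at -1.59 ± 0.25, where 38.7% of tested genes were called, 20.1% higher and 18.6% lower. The call of Atf4 was lost with these 2 groups alone in the fit (-0.54, adjusted p = 0.0919). Chac1 and Hspa5 did not differ by more than the spread in culture, at 0.12 ± 0.42 and -0.18 ± 0.40, with intervals of -0.81 to 1.05 and -1.07 to 0.71. Trib3 had the same outcome (-0.25 ± 0.39, interval -1.13 to 0.62), although it separated the cell types in each of the other 3 settings. Sesn2 (0.81 ± 0.37), Xbp1 (-0.68 ± 0.32) and Herpud1 (-0.50 ± 0.19) were not called in culture either. Herpud1 was called lower under trimmed-mean scaling (-0.57), after quantile normalization (-0.56) and without cultured endothelium replicate 2 (-0.7). Sesn2 was called higher without cultured endothelium replicate 1 (1.34).

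Over the 8 group means of log2(FPKM + 1), the members fell into sets that varied together and sets that did not. These correlations describe 8 points that share libraries between genes, without a test. Ddit3, Trib3, Chac1, Asns and Sesn2 correlated with each other at Pearson r = 0.769 or more, the highest being Trib3 with Chac1 at 0.928 and Chac1 with Sesn2 at 0.912. Atf4 correlated at 0.832 with Ddit3 but at 0.357 with Sesn2. Hspa5 correlated at 0.795 with Ddit3 and at -0.119 with Xbp1. Endothelium in vivo had the highest mean Xbp1 (2012 FPKM) and the lowest mean Hspa5 (1350 FPKM) of the 8 groups. The correlation of Hspa5 with Xbp1 without that group was not computed. Hspa5 and Xbp1 both rose with HSPC in both cell types. Xbp1 correlated at 0.016 with Ddit3, at -0.224 with Chac1 and at 0.499 with Herpud1. Ddit4 had a negative r with each of the other 9 genes, from -0.623 with Asns to -0.011 with Xbp1.

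Among 11781 other genes with a mean of at least 5 FPKM, those with the pattern most like Chac1 over the 8 groups were Ccdc107 (r = 0.9931) and Xpot (0.985), which encodes the exporter of tRNA from the nucleus. The genes most like Ddit3 were Alg2 (0.9891), an enzyme of N-glycan assembly at the ER, and Ggnbp1 (0.9848). Asns had Dhrs9 (0.9955), Sesn2 had Rabl6 (0.9802) and Trib3 had Nisch (0.964) as its nearest gene. Herpud1 was most like Gadd45b (0.9718), a stress and growth arrest gene, and Xbp1 most like Rgs4 (0.9598) and the prostaglandin receptor gene Ptger2 (0.9595). With 8 points and this many candidates, values of this height are a ranking and not a sign of a link.

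**Figure D4:**
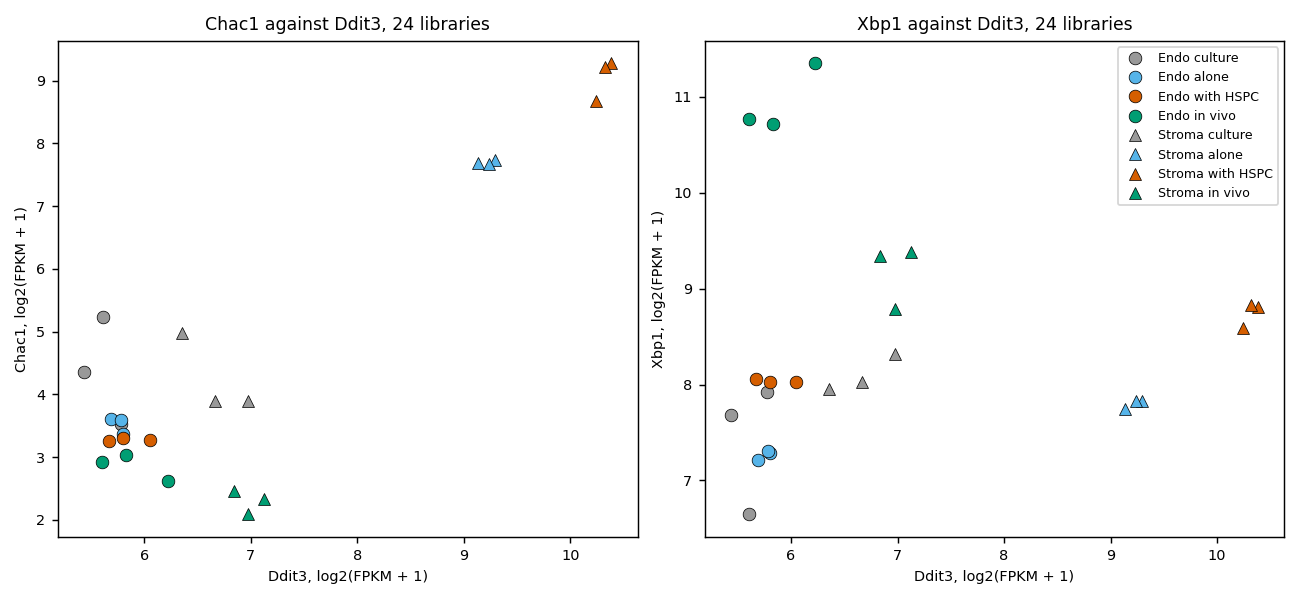
Chac1 against Ddit3 (left) and Xbp1 against Ddit3 (right) as log2(FPKM + 1), one point per library (circles endothelium, triangles stroma, colour by setting). Stroma alone and with HSPC lie at the top right of the left plot, at 202 FPKM or more of Chac1, while in the right plot endothelium in vivo has the highest Xbp1 at low Ddit3, 47.7 to 73.8 FPKM.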

How the data were processed

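PolyA RNA of bone marrow endothelium and stroma was extracted with Trizol and sequenced as paired ends from TruSeq libraries, per the labels' protocols. The authors deposited 1 file of FPKM values per library, and TopHat, Cufflinks and the build mm9 are named per the submitters' processing notes, without versions. FPKM carry no count, so the depth of each library and its counting error are unknown. The annotation and the strand setting are not given in the sources used here.

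The FPKM of the 24 libraries were joined by symbol and taken as log2(FPKM + 1). Genes with at least 1 FPKM in at least 3 libraries of a fit were tested with limma 3.58.1 (R 4.3.3, moderated variance with trend). The 3 fits each held 12 libraries of 4 groups and tested 14017 genes (alone and with HSPC), 14904 genes (culture and in vivo) and 14071 genes (culture and alone). They gave 12 comparisons, 2 of them interactions. Adjusted p-values are Benjamini-Hochberg values over all tested genes, two-sided, with a threshold of 0.05. Comparisons that share a group share its libraries. The script was tested on simulated data.

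The results were recomputed with 0.1 as the pseudocount, without the filter, with the filter at 5 FPKM, with trimmed-mean scaling (trims 0.3 and 0.05), with quantile normalization, with the compared groups alone in the fit, with the replicate number as a block, and without each library in turn. Leaving out the cultured libraries that carry Xist was added after seeing the data and leaves 1 library of cultured endothelium and 2 of cultured stroma. The 10 genes, the 10 pathway lists (108 further genes) and the 10 marker and response lists were chosen with earlier results of these data known. All 10 genes are named in each comparison, and of each further list at most 4 called genes with the largest differences. Likeness used Pearson r over 8 group means. Promoters are from RefSeq GRCm38.p6, a later build than the files', and were matched by symbol for all 10 genes. Figures were drawn with matplotlib 3.10.9 (Python 3.11.15).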

Additional observations from a re-analysis of the deposited data

Results flagged for a closer look

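For 14 results a test of the difference itself, the interaction term of the limma fit on log2(FPKM + 1), found that endothelium and stroma changed by different amounts. Of all tested genes, 57.0% were called in the interaction with HSPC and 33.5% in that of in vivo against culture. Each value below is the log2 difference in endothelium minus that in stroma, with its SE, and the adjusted p is over all tested genes.

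With HSPC, the log2 differences of the ATF4 arm were lower in endothelium, at -0.51 ± 0.10 for Atf4, -1.01 ± 0.12 for Ddit3, -1.61 ± 0.18 for Chac1, -0.57 ± 0.15 for Asns and -0.70 ± 0.06 for Sesn2 (adjusted p between 4.829e-06 and 0.007219). The hypoxia and stress target Ddit4 was at -0.96 ± 0.11, and the ER genes Hspa5 and Herpud1 at -0.82 ± 0.11 and -0.92 ± 0.09. Trib3 was the one gene of the 10 with a larger rise in endothelium, at 0.52 ± 0.09 (adjusted p = 0.000506).

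In vivo against culture, the difference in endothelium minus that in stroma was above 0 for Trib3 at 3.36 ± 0.55, Xbp1 at 2.46 ± 0.45, Asns at 1.20 ± 0.36 and Atf4 at 0.66 ± 0.20, and below 0 for Ddit4 at -2.71 ± 0.59. Asns was lower in vivo in stroma (-1.39 ± 0.25) and not called in endothelium (-0.18 ± 0.25), and Trib3 likewise was lower in stroma (-2.46 ± 0.39) and not called in endothelium (0.90 ± 0.39). Ddit4 was higher in stroma (1.84 ± 0.42) and not called in endothelium (-0.87 ± 0.42), while Xbp1 and Atf4 were called higher in both. The adjusted p of these 5 lay between 0.001044 and 0.02674, so that Atf4 and Asns stood nearest to the threshold.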

How the results depend on the processing

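Of 120 differences of the 10 genes (12 comparisons), 79 were called. Of these, 70 kept their call under every alternative, 9 lost it under at least one and 0 changed sign. Counts of called genes moved by more than 1.5 times outside leave-one-out, from 4 to 8 between endothelium and stroma in vivo with the compared groups alone, and from 2 to 5 for endothelium alone against culture without the libraries that carry Xist, a choice made after seeing the data that leaves cultured endothelium with 1 library, assumed to vary like the other groups. Without 1 library at a time, the counts with HSPC against alone ran from 5 to 6 in endothelium and 9 to 10 in stroma. They ran from 9 to 10 in the interaction, stayed at 10 in both comparisons of the cell types within the co-culture experiment, and ran from 5 to 6 (endothelium) and 5 to 7 (stroma) in vivo against culture, 3 to 6 in that interaction, 4 to 5 between the cell types in culture and in vivo, and 2 to 5 (endothelium) and 5 to 7 (stroma) for alone against culture. Signs changed only for differences that were not called. Trimmed-mean scaling gave 0.02 for Asns in endothelium in vivo against culture and -0.0042 for Atf4 between the cell types in vivo, where quantile normalization gave -0.13, and the latter gave -0.05 for Hspa5 in stroma in vivo against culture. Without the libraries that carry Xist these became 0.01 (Asns) and -0.10 (Hspa5), the interaction of Ddit3 in vivo 0.14, and the cell type differences in culture -0.08 (Chac1), -0.12 (Sesn2) and 0.25 (Hspa5). Leave-one-out ranges that crossed 0 were -0.06 to 0.03 (Atf4) and -0.02 to 0.17 (Ddit3) in endothelium with HSPC, -0.10 to 0.23 (Hspa5, stroma in vivo), -0.20 to 0.12 (Ddit3, interaction in vivo), -0.69 to 0.13 (Trib3), -0.31 to 0.54 (Chac1) and -0.49 to 0.26 (Hspa5) between the cell types in culture, -0.06 to 0.15 (Asns) and -0.53 to 0.10 (Xbp1) for endothelium alone against culture, and -0.29 to 0.04 (Hspa5) for stroma alone against culture. The cause of these changes was not tested. No pairing of libraries by replicate number was detected: deviations of same-numbered libraries correlated between -0.182 and 0.162, and no comparison had every pair over 0.1. With 3 libraries per group these correlations cannot exclude pairing. With the replicate block the counts were 6 and 10 with HSPC (endothelium, stroma), 9 in the interaction, 10 and 10 between the cell types (alone, with HSPC), 6 and 7 in vivo against culture, 4 in that interaction, 4 and 4 between the cell types (culture, in vivo), and 2 and 6 for alone against culture. Under the block Trib3 was called in endothelium in vivo (0.90, adjusted p = 0.0289) and Atf4 was not called in stroma in vivo (0.41, adjusted p = 0.0613) or in the in vivo interaction (0.66, adjusted p = 0.0596). The unknown depth leaves the precision of low values, such as Chac1 and Trib3 in endothelium, without a counting interval.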
